A study of Homo sapiens with 9 samples.

Results

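Cancer-testis and meiosis genes were followed in the established human myeloma line MM.1S on 9 expression arrays. The members were the genes with 1 symbol on the array whose symbol starts with MAGE, CTAG, CT45 or CT47, or with GAGE, PAGE, XAGE, SSX, SYCP or TEX followed by a digit. This gave 77 of the 22465 genes tested, after 9 pseudogenes and 2 antisense genes among 88 matching symbols were left out. Of the members, 47 lie on the X chromosome. Cells were exposed for 24 h to HL13 at 5 nM, to LBH589 at 5 nM or to the solvent DMSO, with 3 arrays per group. LBH589 (panobinostat) blocks histone deacetylases, enzymes that take acetyl groups off histones, and HL13 is given in the labels by this code only. Replicates are labelled biological with no word on separate cultures, so a p value here covers the spread among 3 arrays, which may be technical.

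Cancer-testis antigens are proteins normally made in germ cells of the testis and switched on in many tumours, myeloma among them, where T cells can recognise them. The MAGEA, MAGEB, MAGEC, GAGE, PAGE, XAGE, SSX, CTAG, CT45 and CT47 families form clusters of closely related copies on the X chromosome, and their promoters are held silent in most somatic cells by DNA methylation and by repressor complexes that work with histone deacetylases. SYCP genes encode the synaptonemal complex, the protein zipper that holds paired chromosomes together in meiosis. TEX means testis expressed, a name given to unrelated genes, several of which are active in most cells.

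Promoter windows of 5 members are shown first beside the patterns they belong to, taken from RefSeq (GRCh38.p14), each from 250 bases before to 50 bases after the annotated start and written in the direction of transcription. SYCP3 and TEX9 were lower with both compounds, TEX2 differed in opposite directions, SSX1 was higher with HL13, and MAGEA3 is a bright antigen gene that passed no test. Capitals mark CG dinucleotides, the pairs at which DNA is methylated.
SYCP3: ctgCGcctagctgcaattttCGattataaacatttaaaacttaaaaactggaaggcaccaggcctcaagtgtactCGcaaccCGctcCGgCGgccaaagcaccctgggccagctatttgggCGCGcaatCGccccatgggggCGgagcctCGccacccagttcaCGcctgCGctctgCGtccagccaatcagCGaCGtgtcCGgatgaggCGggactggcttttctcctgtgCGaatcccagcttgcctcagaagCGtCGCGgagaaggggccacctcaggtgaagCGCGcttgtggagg
TEX9: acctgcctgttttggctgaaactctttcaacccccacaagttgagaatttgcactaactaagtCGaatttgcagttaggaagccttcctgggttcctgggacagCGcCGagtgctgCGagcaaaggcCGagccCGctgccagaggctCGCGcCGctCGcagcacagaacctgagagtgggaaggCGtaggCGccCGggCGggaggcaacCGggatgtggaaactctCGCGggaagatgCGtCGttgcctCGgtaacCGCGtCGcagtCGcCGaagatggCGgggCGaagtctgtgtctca
TEX2: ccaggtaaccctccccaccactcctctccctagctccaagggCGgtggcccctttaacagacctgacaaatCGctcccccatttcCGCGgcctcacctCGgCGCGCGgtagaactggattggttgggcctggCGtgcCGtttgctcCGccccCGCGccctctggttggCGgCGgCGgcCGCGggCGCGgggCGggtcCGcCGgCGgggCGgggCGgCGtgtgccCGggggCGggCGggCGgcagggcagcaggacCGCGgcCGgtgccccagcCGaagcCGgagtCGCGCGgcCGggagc
SSX1: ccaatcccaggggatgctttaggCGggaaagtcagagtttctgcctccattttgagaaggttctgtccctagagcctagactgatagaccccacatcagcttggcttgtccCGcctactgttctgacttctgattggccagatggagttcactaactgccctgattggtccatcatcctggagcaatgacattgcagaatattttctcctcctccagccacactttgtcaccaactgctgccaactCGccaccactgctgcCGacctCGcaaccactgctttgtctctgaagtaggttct
MAGEA3: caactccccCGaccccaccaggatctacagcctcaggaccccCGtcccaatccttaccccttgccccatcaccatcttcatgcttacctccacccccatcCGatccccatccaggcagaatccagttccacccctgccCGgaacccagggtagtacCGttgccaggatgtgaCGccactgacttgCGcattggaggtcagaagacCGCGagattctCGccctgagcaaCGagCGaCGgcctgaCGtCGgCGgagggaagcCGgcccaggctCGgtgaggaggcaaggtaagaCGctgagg
The windows are chr12:101739413-101739712 on the minus strand for SYCP3, chr15:56365176-56365475 on the plus strand for TEX9, chr17:64263211-64263510 on the minus strand for TEX2, chrX:48255142-48255441 on the plus strand for SSX1 and chrX:152698544-152698843 on the plus strand for MAGEA3. They hold 24 CG dinucleotides in SYCP3, 27 in TEX9, 40 in TEX2, 5 in SSX1 and 19 in MAGEA3, beside a median of 14 over the 35116 promoters of the table.

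The table matched 62 of the 77 members. Its 30 promoters of X-linked antigen family genes held a median of 11.5 CG dinucleotides, with a range of 3 to 21, and the 32 other members held 15.5. The E2F-type letters GGCGGGA, searched on both strands, occur in 15.4% of all promoters and in 16 of the 62 members. SYCP3 has them 42 bases before the start and TEX9 has them 54 bases before it. SSX1 has a match on each strand, 229 and 142 bases before the start, and the TEX2 and MAGEA3 windows hold none. The E-box letters CACGTG, which read the same on both strands, occur in 7.26% of all promoters and in 13 of the 62 members. Of these, 9 are X-linked antigen genes, all from the GAGE, PAGE and XAGE families. Both counts of letters include all 4 GAGE genes, and related copies are not separate instances. A match of letters is a description and shows no binding.

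Most members were dim. A gene is called above the median here when its log2 intensity exceeds that array's median over all probes, and the medians were 5.33 to 5.38. On this scale 30 members lay above the median on all 9 arrays, 40 on none and 7 on some. Of the 37 X-linked antigen family genes, 9 lay above it on all arrays, 25 on none and 3 on some. The 9 were MAGEA1, MAGEA3, MAGEA4, MAGEA6, MAGEA8, MAGEB17, MAGEC2, CTAG2 and GAGE12B. All 6 PAGE genes, both XAGE genes, CT45A5 and CT47B1 lay at or below it on every array. Of the 7 MAGEA genes 5 lay above it throughout. In the SYCP family SYCP3 lay above it on all arrays, and SYCP1, SYCP2 and SYCP2L on none.

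Arrays of a group correlated with r between 0.9972 and 0.9989, and the median standard error of a log2 difference was 0.0435. The number of arrays limits the precision. All 10 plasma cell markers examined, SDC1 and TNFRSF17 among them, lay above the median on all 9 arrays. Of 10 germ cell markers PRM2 alone did, and 8, including DDX4 and DAZL, lay above it on none. Some markers of other lineages also lay above it on all 9 arrays. These were 2 of 5 for T and NK cells, 1 of 4 for monocytes and macrophages, 3 of 5 for fibroblasts and endothelium and 1 of 2 measured erythroid markers. A level above the median therefore does not by itself mark a cell type. In bulk RNA, fewer cells with a transcript and less of it per cell cannot be told apart. In the deposited values 39 of the members and 39% of all genes had exactly the same value on 2 or more arrays (to 6 decimals). TEX11 had 1 value on 8 arrays. The spread within a group is then near 0, and the error of such a gene rests largely on the variance that limma shares across genes.

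HL13 was set against DMSO to ask which members responded to it. SYCP3 and TEX9 were much lower, MAGEA1 was moderately lower, and TEX15 and TEX14 were higher, while nearly all antigen genes of the X chromosome kept differences close to 0. In limma's test with Benjamini-Hochberg adjustment over all genes, 16 of the 77 members had an adjusted p under 0.05, against 44.4% of all genes tested. This is 20.8% of the members. Of the 16, 7 were higher and 9 lower, while 22.9% of all genes were higher and 21.5% lower. An absolute log2 difference of at least 0.5 with that p was found for 4 members, SYCP3, TEX9, MAGEA1 and TEX15, against 15.1% of all genes. The arrays of the groups did not overlap for 28 members, against 54.2% of all genes. The median difference over the members was 0.00, as it was over all genes. Among dim genes, those above the median on fewer than 3 arrays, 15.8% of all genes were called and 6 of the 41 members. Among the brighter genes, above it on 3 or more arrays, 56.4% of all genes were called and 10 of the 36 members. The smaller share of members called was therefore seen among the brighter genes. This split is coarse and does not match level within a class. Some of the brighter members, such as MAGEB17 and TEX28, lay close to the array medians. Centring each array on its median gave 5 members higher and 16 lower, in place of 7 and 9. Over all genes, centring also gave fewer higher and more lower.

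LBH589 was set against DMSO to ask the same of panobinostat. SYCP3, TEX9 and MAGEA1 were again the members furthest from DMSO, all lower, and TEX2 was higher. In total 11 of the 77 members (14.3%) were called, against 39.9% of all genes. Of these 5 were higher and 6 lower, while 20.9% of all genes were higher and 19% lower. Among the brighter genes 9 of the 36 members were called, against 52.4% of all genes. Of the 41 dim members 2 were called, with no share of all dim genes given here. SYCP3, TEX9 and MAGEA1 were the 3 with an absolute difference of at least 0.5, against 12.3% of all genes, and groups did not overlap for 16 members, against 45.3%. With median centring 3 members were higher and 7 lower, in place of 5 and 6. Both comparisons use the same DMSO arrays. Of the members 7 were called in both: SYCP3, TEX9, MAGEA1 and TEX264 lower with each compound, MAGEE1 and GAGE2A higher with each, and TEX2 lower with HL13 and higher with LBH589. The share of all genes called in both is not given here, so the 7 are a list and no trait of the families.

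**Figure D1:**
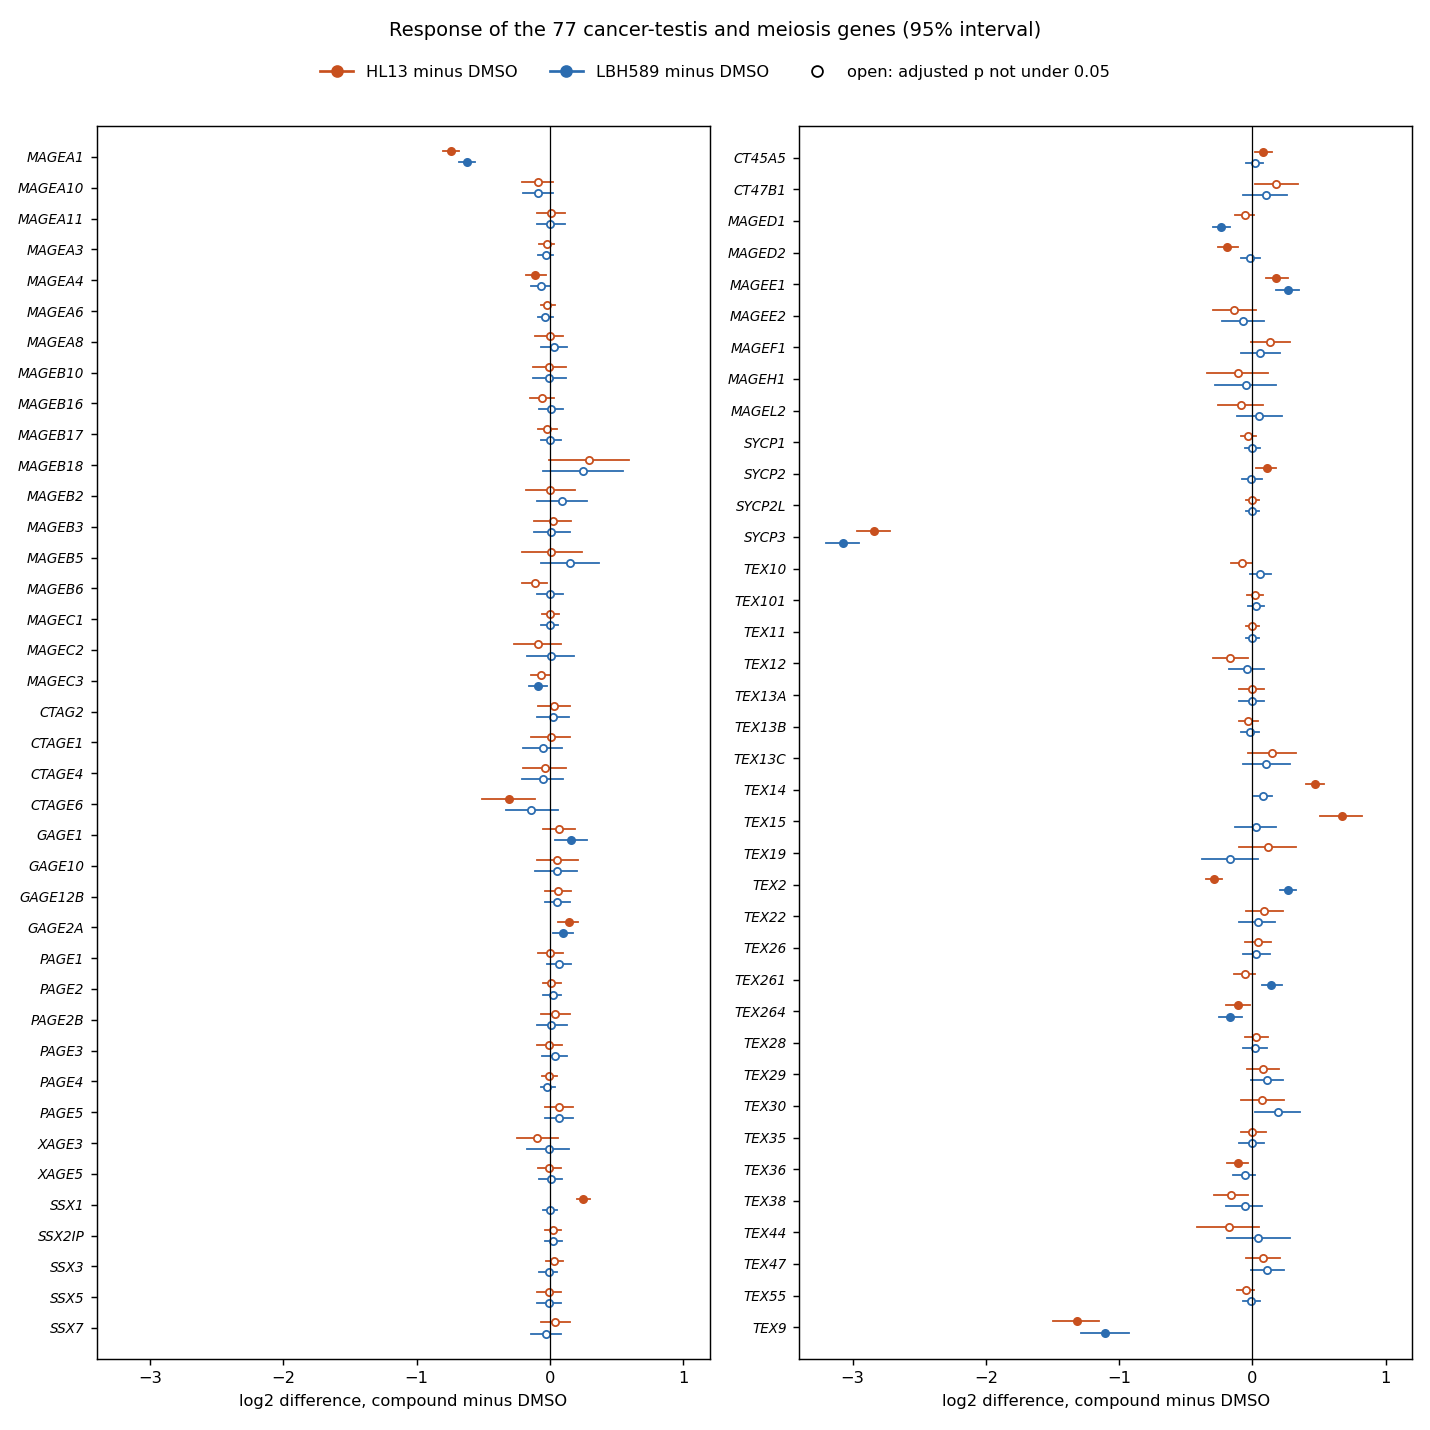
Log2 difference from DMSO of each of the 77 members, grouped by family, with 95% intervals as bars, for HL13 (orange) and LBH589 (blue), 3 arrays per group. Filled points have an adjusted p under 0.05. Most points lie near 0, and SYCP3, at -2.84 with HL13 and -3.07 with LBH589, lies furthest from it.

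SYCP3 encodes a structural protein of the axis to which meiotic chromosome loops attach. It had log2 intensities of 5.67, 5.70 and 5.79 on HL13 arrays, 5.38, 5.51 and 5.58 on LBH589 arrays, and 8.61, 8.52 and 8.56 on DMSO arrays. The treated arrays lay just above their array medians and far below every DMSO array. The log2 difference was -2.84 ± 0.0549 with HL13 (SE, n = 3 arrays per group, limma adjusted p = 1.3e-09), which is 7.17-fold lower, and -3.07 ± 0.0549 with LBH589 (limma adjusted p = 1.1e-09), 8.4-fold lower. The other SYCP genes were dim. SYCP2, another axis component, was higher with HL13 by 0.11 (limma adjusted p = 0.0246) while below the median on all arrays, and it differed by -0.01 with LBH589 (limma adjusted p = 0.93). SYCP1, the transverse filament of the complex, had 1 value, 2.81, on 6 of 9 arrays. SYCP2L differed by 0.00 with each compound.

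The genes on either side of SYCP3 on chromosome 12, looked up after its values were seen, had smaller differences. GNPTAB differed by -0.49 with HL13 and -0.44 with LBH589, and CHPT1 by -0.28 and -0.20, all 4 with an adjusted p under 0.05. Further out, MYBPC1 differed by 0.00 and -0.02, and DRAM1 was higher with HL13, by 0.50. Of the neighbours of TEX9 on chromosome 15, MNS1 differed by -0.21 with HL13 and -0.23 with LBH589, and RFX7 by -0.18 and -0.12, the last with a limma adjusted p of 0.115. Some neighbours of other members differed by more than the member did. Next to TEX15, PPP2CB differed by 0.14 with each compound and PURG by 0.58 with HL13 and 0.44 with LBH589. Further out from TEX15, UBXN8 differed by -1.59 with HL13 and -1.67 with LBH589, and WRN by -0.69 and -0.01. Next to TEX2, PECAM1 differed by 0.75 and -0.39 and ERN1 by -0.44 and -0.12, and further out ICAM2 differed by -0.27 and -0.80. Next to TEX14, SEPTIN4 differed by 0.59 and 0.42, and next to CTAGE6, TCAF1 by 0.93 and 0.74.

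TEX9, on chromosome 15, had log2 intensities of 8.55, 8.43 and 8.36 on HL13 arrays, 8.51, 8.65 and 8.84 on LBH589 arrays, and 9.78, 9.78 and 9.77 on DMSO arrays. The DMSO arrays were tightly grouped above all treated arrays. The log2 difference was -1.32 ± 0.0779 with HL13 (limma adjusted p = 7.1e-07), 2.5-fold lower, and -1.11 ± 0.0779 with LBH589 (limma adjusted p = 2.8e-06), 2.16-fold lower. It lay well above the array medians in every group.

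MAGEA1 was the first cancer-testis antigen to be described and a target of T cells in melanoma. Its log2 intensities were 8.04, 8.09 and 8.08 on HL13 arrays, 8.19, 8.17 and 8.21 on LBH589 arrays, and 8.80, 8.82 and 8.82 on DMSO arrays. The 3 groups formed separate bands, with HL13 lowest and DMSO highest. The difference from DMSO was -0.74 ± 0.0253 with HL13 (limma adjusted p = 2.3e-08), 1.67-fold lower, and -0.62 ± 0.0253 with LBH589 (limma adjusted p = 8.7e-08), 1.54-fold lower.

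The other 6 MAGEA genes differed from DMSO by between -0.11 and 0.01 with HL13. MAGEA3, whose protein binds the ubiquitin ligase TRIM28, had log2 intensities of 7.55, 7.55 and 7.53 on HL13 arrays, 7.56, 7.52 and 7.53 on LBH589 arrays, and 7.56, 7.57 and 7.58 on DMSO arrays. Its difference was -0.02 with HL13 (95% interval -0.08 to 0.03) and -0.03 with LBH589 (95% interval -0.09 to 0.02). MAGEA6, nearly identical in sequence, gave -0.02 and -0.04, and since probes may detect both genes their levels cannot be assigned with certainty. MAGEA4 was 6.30, 6.29 and 6.28 on HL13 arrays, 6.38, 6.33 and 6.28 on LBH589 arrays and 6.36, 6.41 and 6.43 on DMSO arrays. HL13 arrays lay below DMSO arrays for MAGEA4, by a log2 difference of -0.11 (limma adjusted p = 0.0229), and LBH589 arrays reached into the HL13 and DMSO ranges, at -0.07 (limma adjusted p = 0.131).

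Taking the 37 X-linked antigen family genes as a group, 5 (13.5%) were called with HL13, 3 higher and 2 lower, against 44.4% of all genes and 15.8% of dim genes. With LBH589 4 (10.8%) were called, 2 higher and 2 lower, against 39.9% of all genes. That share is not matched for brightness. Of the 8971 genes called with LBH589, 8309 lay above the median on 3 or more arrays, while 25 of the 37 lay above it on none. Without MAGEA1, the log2 differences of the other 36 ranged from -0.11 to 0.29 with HL13 and from -0.09 to 0.25 with LBH589. Their 95% intervals ran from -0.27 to 0.59 and from -0.20 to 0.55, and both upper bounds belong to MAGEB18, a dim gene whose own adjusted p did not pass. No MAGEB, PAGE or XAGE gene was called with either compound. The members of further families with the highest mean are given as examples. MAGEC2 differed by -0.09 with HL13 (limma adjusted p = 0.4) and 0.01 with LBH589, MAGEB17 by -0.02 and 0.00, and CTAG2, a close relative of the NY-ESO-1 gene, by 0.03 and 0.02. PAGE5 differed by 0.07 with each compound, and XAGE3 by -0.10 and -0.01.

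Other differences among the GAGE, CT45, CT47, MAGEC and CTAGE genes were small. GAGE2A was 3.99, 4.06 and 4.0 on HL13 arrays, 3.95, 3.99 and 4.0 on LBH589 arrays, and 3.84, 3.90 and 3.90 on DMSO arrays. All treated arrays lay above all DMSO arrays, by 0.14 with HL13 (limma adjusted p = 0.00658) and 0.10 with LBH589 (limma adjusted p = 0.0392). GAGE1 was called with LBH589, at 0.16 (limma adjusted p = 0.0407), GAGE12B differed by 0.06 and 0.05 with HL13 and LBH589, and CT45A5 was called with HL13, at 0.08 (limma adjusted p = 0.0422). CT47B1 differed by 0.18 with HL13 (limma adjusted p = 0.073), and MAGEC3 by -0.09 with LBH589 (limma adjusted p = 0.0456). Of these, the calls of GAGE1, CT45A5, MAGEC3 and, with LBH589, GAGE2A were lost when any of several single arrays was left out (limma adjusted p up to 0.14). Copies of GAGE, CT45, CT47 and CTAGE are nearly identical and may share probes, so these values are uncertain as to the copy. CTAGE6, an autosomal relative by name, was lower with HL13 by 0.31 on the log2 scale (limma adjusted p = 0.0158). The difference was -0.20 without DMSO replicate 1 (limma adjusted p = 0.0156), and the call was lost without HL13 replicate 1 (log2 difference -0.27, limma adjusted p = 0.0623). CTAGE6 lay above the array median on 0 HL13 arrays, 2 LBH589 arrays and 3 DMSO arrays.

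SSX1, a transcriptional repressor whose gene is fused to SS18 in synovial sarcoma, was chosen for its pattern after the values were seen. Its log2 intensities were 4.57, 4.57 and 4.59 on HL13 arrays, 4.33, 4.33 and 4.33 on LBH589 arrays, and 4.33, 4.33 and 4.33 on DMSO arrays. HL13 arrays stood above the others, but all 9 lay below their array medians and 4 of them shared 1 exact value. The difference was 0.25 ± 0.0226 with HL13 (limma adjusted p = 1.4e-05) and 0.00 with LBH589 (limma adjusted p = 0.995). Copies of SSX are close in sequence, so the copy is uncertain. SSX2IP, which shares the prefix as the gene of a partner of SSX2 and no antigen family, differed by 0.02 with each compound.

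**Figure D2:**
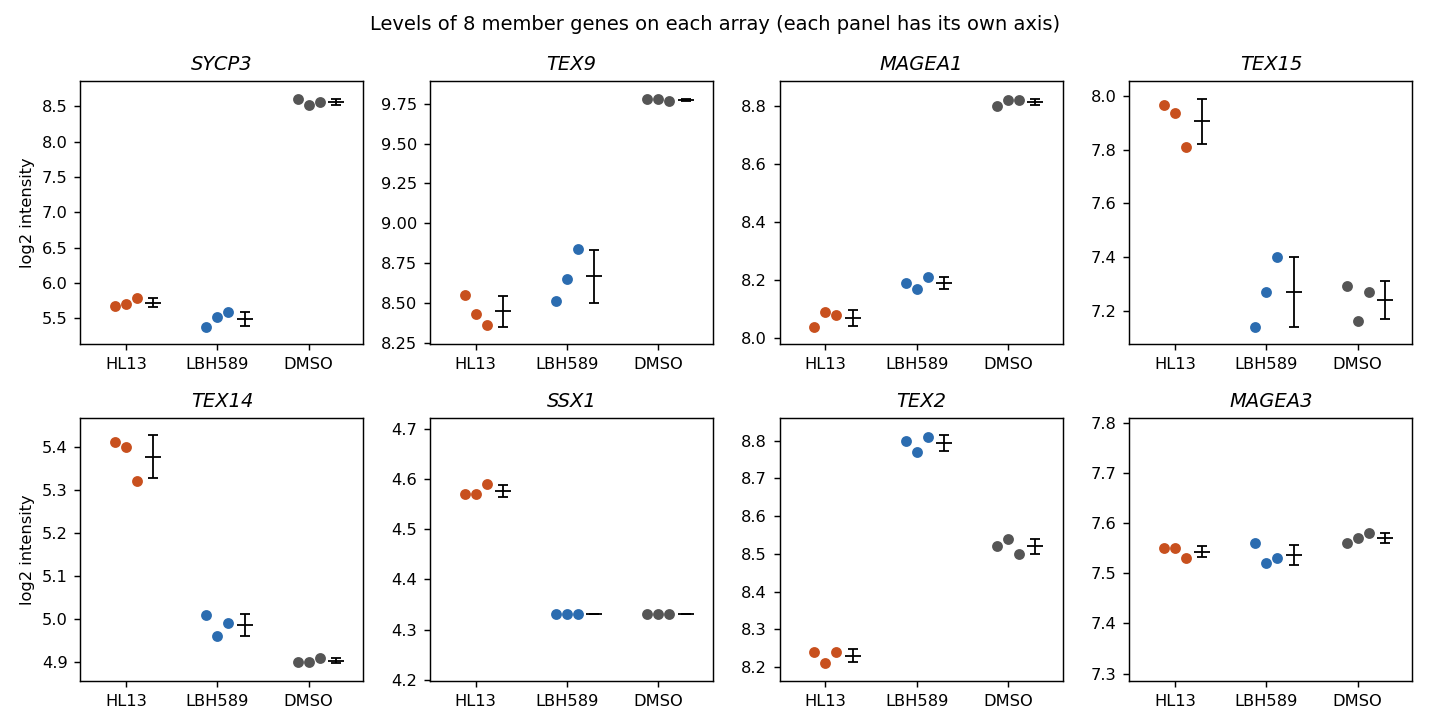
Log2 intensity of 8 members on each array, with HL13, LBH589 and DMSO from left to right (3 arrays each) and the mean with its SD beside the points. Each panel has its own axis: SYCP3, TEX9 and MAGEA1 lie lower in both treated groups, TEX15, TEX14 and SSX1 lie higher in HL13, TEX2 lies on either side of DMSO and MAGEA3 differs little between groups.

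Among TEX genes, TEX15 and TEX14 have roles in the male germ line. TEX15 is needed in mice for repair of meiotic DNA breaks and for silencing of transposons, and TEX14 for the bridges that join dividing germ cells in mice. TEX15 had log2 intensities of 7.97, 7.94 and 7.81 on HL13 arrays, 7.14, 7.27 and 7.40 on LBH589 arrays, and 7.29, 7.16 and 7.27 on DMSO arrays. LBH589 and DMSO arrays overlapped and HL13 arrays stood above both. The difference was 0.67 ± 0.0691 with HL13 (limma adjusted p = 3.4e-05), 1.59-fold higher, and 0.03 ± 0.0691 with LBH589 (limma adjusted p = 0.829). TEX14, picked after its values were seen, was 5.41, 5.40 and 5.32 on HL13 arrays, 5.01, 4.96 and 4.99 on LBH589 arrays, and 4.90, 4.90 and 4.91 on DMSO arrays. It differed from DMSO by 0.47 with HL13 (limma adjusted p = 1.4e-06) and 0.08 with LBH589 (limma adjusted p = 0.068), and only 2 arrays reached above their medians.

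TEX2 and several other called TEX genes are active in many tissues. TEX2, a lipid-binding protein of the endoplasmic reticulum, had log2 intensities of 8.24, 8.21 and 8.24 on HL13 arrays, 8.80, 8.77 and 8.81 on LBH589 arrays, and 8.52, 8.54 and 8.50 on DMSO arrays. No groups overlapped, with DMSO between the compounds. TEX2 differed by -0.29 with HL13 (limma adjusted p = 1.1e-05) and 0.27 with LBH589 (limma adjusted p = 2.1e-05). TEX264, a receptor for autophagy of the endoplasmic reticulum, differed by -0.11 and -0.17 with HL13 and LBH589, both called. TEX261 was called higher with LBH589, by 0.14, and TEX36 lower with HL13, at -0.11 and below the array median throughout. Of the 25 TEX genes, 6 (24%) were called with HL13, against 44.4% of all genes, and 4 (16%) with LBH589, against 39.9%.

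The broadly expressed MAGE genes, known as type II MAGE, gave small differences of mixed direction, and those named here besides MAGEF1 were picked after their values were seen. MAGEE1 was 6.49, 6.56 and 6.54 on HL13 arrays, 6.62, 6.62 and 6.59 on LBH589 arrays, and 6.42, 6.32 and 6.30 on DMSO arrays. Treated arrays lay above DMSO arrays, by 0.18 with HL13 (limma adjusted p = 0.00246) and 0.27 with LBH589 (limma adjusted p = 0.00027). MAGED2 was called lower with HL13, at -0.19 (limma adjusted p = 0.00149), and differed by -0.02 with LBH589. MAGED1, an adaptor of the low-affinity neurotrophin receptor, was called lower with LBH589, at -0.24 (limma adjusted p = 0.00015), and differed by -0.06 with HL13. MAGEF1 differed by 0.13 with HL13 (limma adjusted p = 0.135) and 0.06 with LBH589. Of the 7 such genes, 2 (28.6%) were called with each compound, against 44.4% of all genes with HL13 and 39.9% with LBH589.

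HL13 and LBH589 were given at the same dose and time, so they were compared directly, as the 1 pair of compounds for each member. The structure of HL13 is not given in the labels and no structural difference is named here. TEX15, TEX14 and SSX1 were higher with HL13 than with LBH589, and TEX2 was lower. Of the 77 members, 11 (14.3%) were called, against 23.3% of all genes. With HL13 6 were higher and 5 lower, while 11.7% of all genes were higher and 11.6% lower. These shares of all genes are not matched for brightness, and 41 of the members are dim. A difference of at least 0.5 was called for 2 members, TEX15 and TEX2, against 2.2% of all genes, and the groups did not overlap for 18 members, against 34.5% of all genes. For 74 members the 95% interval of the difference lay within 0.5 of 0 on the log2 scale.

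TEX15 differed by 0.64 ± 0.0691 between HL13 and LBH589 (limma adjusted p = 0.00021), TEX14 by 0.39 ± 0.0307 (limma adjusted p = 3.2e-05), SSX1 by 0.25 ± 0.0226 (limma adjusted p = 7.9e-05) and TEX2 by -0.56 ± 0.0256 (limma adjusted p = 2.5e-06). The members furthest from DMSO were compared in the same way. SYCP3 was higher with HL13 than with LBH589 by 0.23 (95% interval 0.10 to 0.35, limma adjusted p = 0.0151), or by 0.19 without HL13 replicate 3 (limma adjusted p = 0.0571), and MAGEA1 differed by -0.12 (95% interval -0.18 to -0.06, limma adjusted p = 0.00898). TEX9 differed by -0.22 (95% interval -0.39 to -0.04), which did not pass after adjustment (limma adjusted p = 0.0841) but did at -0.29 without LBH589 replicate 1 (limma adjusted p = 0.0188). MAGED1 and MAGED2 differed in opposite directions, by 0.18 and -0.17, both called. TEX261 differed by -0.20, TEX10, a subunit of a complex in ribosome assembly, by -0.14, and SYCP2 by 0.11, all 3 called. Of the 37 X-linked antigen family genes, MAGEA1 and SSX1 were the 2 called (5.41%, against 23.3% of all genes), and the intervals of all 37 lay between -0.36 and 0.34. The 23.3% is not matched for brightness, and most of the 37 are dim.

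**Figure D3:**
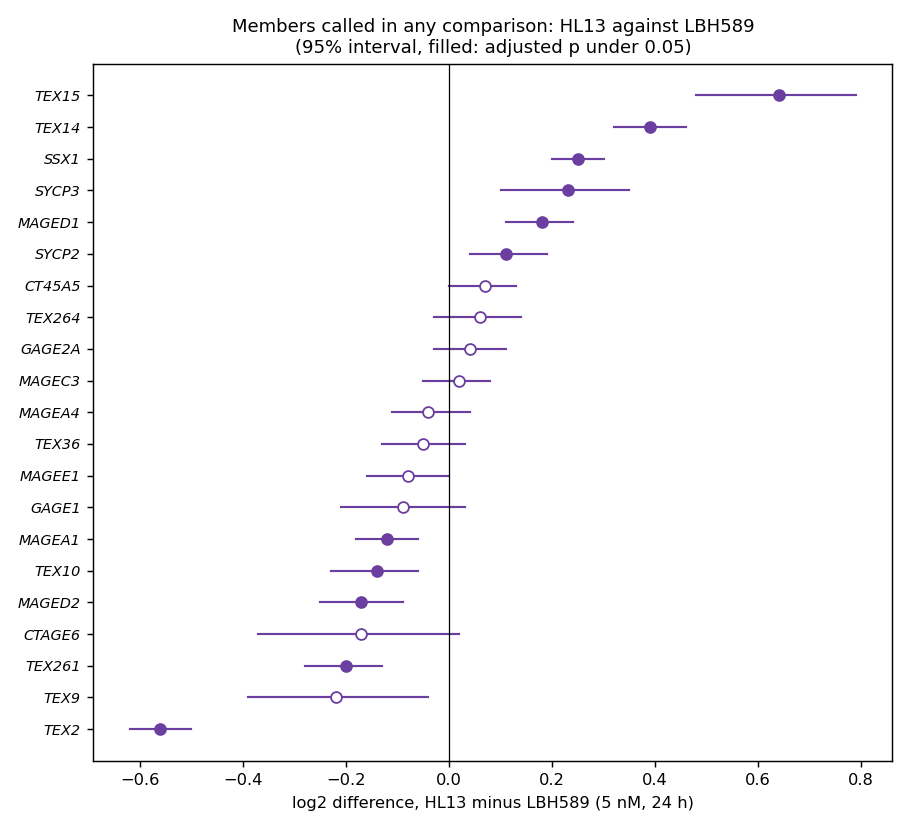
Log2 difference of HL13 minus LBH589, both at 5 nM for 24 h, for the 21 members called in any of the 3 comparisons, with 95% intervals as bars. Filled points have an adjusted p under 0.05, and TEX15 (0.64) and TEX2 (-0.56) lie at the ends.

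Genes outside the families that belong to the same programmes were read from 7 lists, chosen with earlier results known. Each count is set beside the shares of all genes called, 44.4% with HL13 and 39.9% with LBH589. These shares are not matched for brightness. In the list of meiotic chromosome axis, synapsis and telomere genes, 7 of 23 were called with HL13, 3 higher and 4 lower, and 6 with LBH589, 2 higher and 4 lower. TRIP13, an ATPase that removes HORMA domain proteins from chromosome axes and also acts in the mitotic checkpoint, was 7.37, 7.39 and 7.37 on HL13 arrays, 7.52, 7.49 and 7.54 on LBH589 arrays, and 9.68, 9.61 and 9.58 on DMSO arrays. It was far lower in both treated groups, with differences of -2.25 (HL13) and -2.11 (LBH589), both called. SMC1A, a cohesin subunit of all dividing cells, differed by -0.81 with each compound, SUN1 by 0.46 with each, and SUN2 by -0.31 and -0.48, all called.

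Of 33 recombination genes, 14 were called with HL13, 5 higher and 9 lower, and 12 with LBH589, 5 higher and 7 lower. MND1, which with PSMC3IP helps strand exchange in meiosis, differed by -0.71 with HL13 and -0.73 with LBH589. PSMC3IP itself was 7.83, 7.86 and 7.87 on HL13 arrays, 8.27, 8.37 and 8.48 on LBH589 arrays, and 8.45, 8.42 and 8.40 on DMSO arrays. HL13 arrays alone stood apart for PSMC3IP, and the difference was -0.57 with HL13 (limma adjusted p = 8.5e-06), -0.05 with LBH589 (limma adjusted p = 0.52) and -0.52 between HL13 and LBH589 (limma adjusted p = 8.7e-05). MCM8, a helicase of recombination repair, differed by -0.72 with HL13 and -0.27 with LBH589. The crossover genes CCNB1IP1 and MSH5 were higher, by 0.51 and 0.35 with HL13 and by 0.60 each with LBH589.

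Of 30 germ cell programme genes, 3 were called with HL13, 2 higher and 1 lower, and 1 with LBH589, higher. Most of this list is dim, with 8 of the 30 above the median on 3 or more arrays. Among dim genes 15.8% of all genes were called with HL13, so the low counts are no trait of germ cell genes. TDRKH, which acts in the maturation of piRNAs, was 9.0, 8.99 and 8.93 on HL13 arrays, 9.01, 9.07 and 9.10 on LBH589 arrays, and 7.53, 7.45 and 7.48 on DMSO arrays. The treated arrays lay close together and above all DMSO arrays, by 1.49 with HL13 (limma adjusted p = 3.6e-09) and 1.57 with LBH589 (limma adjusted p = 3.7e-09). CREM, whose testis form activates genes of maturing sperm cells and which also acts outside the testis, was higher by 0.33 with HL13 (limma adjusted p = 3.1e-06) and differed by 0.00 with LBH589.

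Of 56 other catalogued cancer-testis antigens, 16 were called with HL13, 11 higher and 5 lower, and 12 with LBH589, 6 higher and 6 lower. This list is also mostly dim, with 18 of the 56 above the median on 3 or more arrays. KDM5B, a histone H3K4 demethylase also made outside the testis, was higher by 2.45 with HL13 and 2.35 with LBH589. SPA17, a protein of the sperm tail, was higher by 0.76 and 0.90, TMEFF2 by 0.73 and 0.41, and CEP290, a protein of the base of cilia, by 0.56 and 0.69, all called. PRAME, an antigen of melanoma and leukaemia, was 7.39, 7.40 and 7.38 on HL13 arrays, 6.84, 6.74 and 6.77 on LBH589 arrays, and 6.70, 6.70 and 6.70 on DMSO arrays. PRAME was 0.69 higher with HL13 (limma adjusted p = 8.1e-08), 0.08 with LBH589 (limma adjusted p = 0.0517), and HL13 exceeded LBH589 by 0.61 (limma adjusted p = 3e-06). Of 19 cell-division and sperm genes in the same catalogue, 12 were called with HL13, 7 higher and 5 lower, and 9 with LBH589, 5 higher and 4 lower. The mitotic kinase gene PBK differed by -0.85 and -0.77, and CEP55, needed at the end of cell division, by 0.44 and 0.30.

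The list with the highest share called held repressors of germline genes together with other factors of DNA methylation. It also counts TET1, TET2 and TET3, which remove methyl groups from DNA, CTCFL, an activator of cancer-testis genes, and the insulator protein CTCF. Its counts are therefore not those of repressors alone. Of 29 measured, 21 (72.4%) were called with HL13, 5 higher and 16 lower, and 23 (79.3%) with LBH589, 5 higher and 18 lower. The median log2 difference was -0.13 with HL13 and -0.16 with LBH589, beside 0.00 and 0.01 over all genes. The list is bright, with 28 of 29 above the median on 3 or more arrays, and of all genes as bright 56.4% were called with HL13 and 52.4% with LBH589. TET1 differed by -0.59 and -0.75, TET2 by -0.53 and -0.49 and TET3 by -0.21 and -0.20 with HL13 and LBH589, all called, while CTCFL differed by 0.00 and 0.01. L3MBTL2 and WDR5, subunits of the PRC1.6 complex, differed by -0.97 and -0.95 with HL13 and by -0.67 and -0.51 with LBH589. UHRF1, which brings DNA methyltransferase to replicated DNA, differed by -0.76 with HL13 and -1.02 with LBH589, and CTCF, an insulator protein, by -0.84 and -0.99. RYBP, another Polycomb subunit, was higher by 0.95 with HL13 and 0.54 with LBH589. The differences of L3MBTL2, WDR5, UHRF1, CTCF and RYBP were called with both compounds. Of 18 MAGE partners and MAGE homology proteins outside the families, NDN and NSMCE3 being the homologues, 10 were called with HL13, 4 higher and 6 lower, and 9 with LBH589, 3 higher and 6 lower. The ubiquitin ligases TRIM27 and TRIM28 differed by -0.61 and -0.59 with HL13 and by -0.48 and -0.47 with LBH589, and the deubiquitinase USP7 by -0.74 and -0.75. SMC6, of the SMC5/6 complex, was higher by 0.31 and 0.45.

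**Figure D4:**
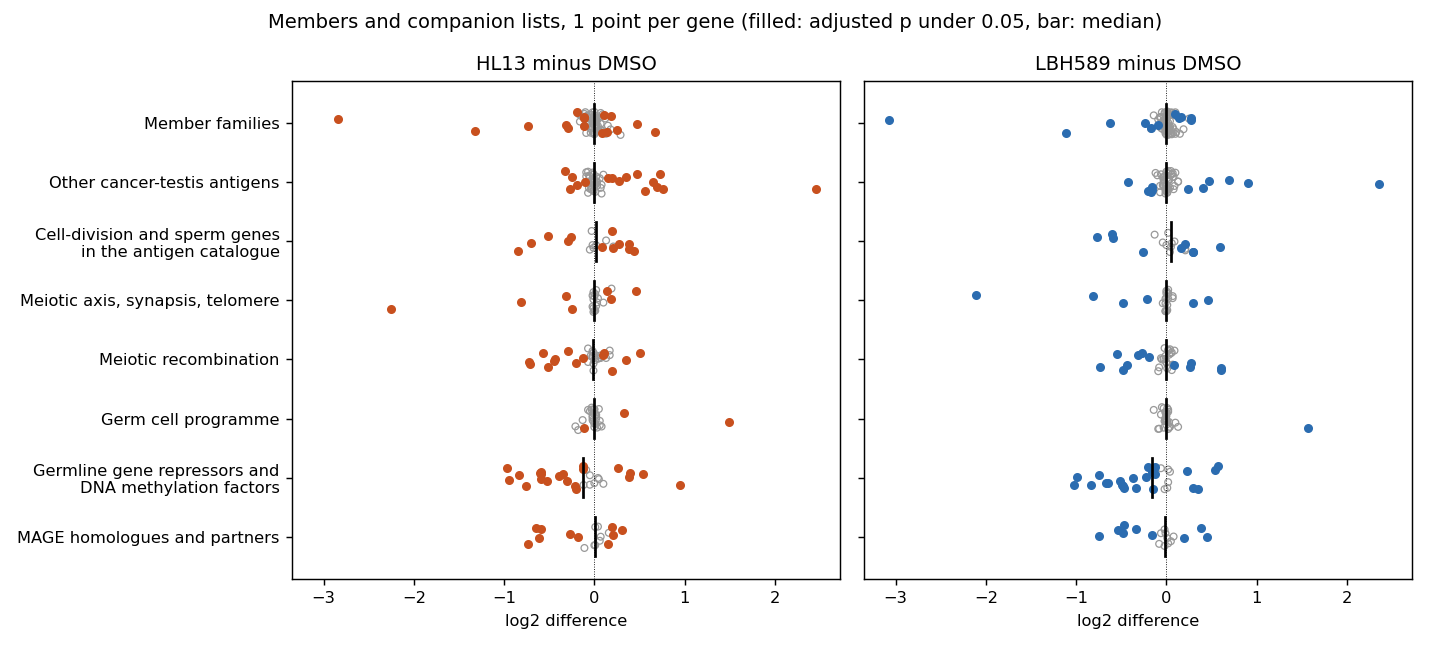
Log2 difference from DMSO of each gene of the member families and of the 7 companion lists, for HL13 (left) and LBH589 (right). Each point is 1 gene, filled where the adjusted p is under 0.05, the vertical jitter carries no value and black bars mark medians, which lie near 0 except for the list of germline gene repressors and DNA methylation factors, at -0.13 and -0.16.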

How the data were processed

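RNA of MM.1S cells was measured on Affymetrix Human Transcriptome arrays, 3 each for HL13, LBH589 and DMSO. The authors deposited 1 log2 value per probe set, between 1.72 and 14.6. The log base is inferred from that range, and the summary and normalization steps are not given in the sources used here, since the study's methods describe RNA sequencing. Of 70523 probe sets, 23781 carried 1 gene symbol in the platform annotation, 1543 several and 45199 none. Probe sets with 1 symbol were kept, taking for a gene with several the one with the highest mean, which left 22465 genes.

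Differences were tested with limma 3.58.1 (R 4.3.3), by lmFit with eBayes on all 9 arrays, two-sided and with no brightness filter, with Benjamini-Hochberg adjustment over all genes. A gene was called at an adjusted p under 0.05. The brightness filter of the alternatives asks for a value above the array's median on at least 3 arrays. Of the members 36 (46.8%) passed it, beside 70.5% of all genes. The members and lists were chosen with earlier results of these data known. Named were members with a called absolute log2 difference of at least 0.5 in any comparison, the brightest member of each family and up to 5 genes per list, and other members were named after their values were seen. Alternatives were the filter, median centring, quantile normalization, a trended robust prior, the 6 arrays of a contrast, the replicate number as a block, the mean over probe sets, all probe sets, and leaving out each array. Probe sets naming several genes were kept out and read separately, from the fit of all probe sets.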

Additional observations from a re-analysis of the deposited data

Results flagged for a closer look

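A pair of probe sets that detect both SSX4 and SSX4B, near-identical copies on the X chromosome, were kept out of the members because they name several genes, and both were higher with HL13. The probe set TC0X000250.hg.1 had log2 intensities of 4.55, 4.58 and 4.59 on HL13 arrays, 4.42, 4.33 and 4.31 on LBH589 arrays, and 4.22, 4.34 and 4.32 on DMSO arrays. HL13 arrays lay above all others, by 0.28 ± 0.0451 from DMSO (limma adjusted p = 0.00145) and by 0.22 from LBH589 (limma adjusted p = 0.0164). The probe set TC0X001008.hg.1 had 4.01, 4.05 and 4.09 on HL13 arrays, 3.89, 3.93 and 3.79 on LBH589 arrays, and 3.60, 3.84 and 3.71 on DMSO arrays, a difference of 0.33 ± 0.0644 between HL13 and DMSO (limma adjusted p = 0.00426) and of 0.18 between HL13 and LBH589 (limma adjusted p = 0.148). All 9 arrays lay below their medians for both, as for SSX1. In HL13 against DMSO these were the 2 called of 52 probe sets that name a family gene beside another gene. Among the 52, 45 distinct sets of values occur. With LBH589 1 of the 52 was called, the probe set of CTAGE15 and its pseudogene, at -0.26 (limma adjusted p = 0.0312). These calls come from the fit of all probe sets. The shares of all genes called, 44.4% with HL13 and 39.9% with LBH589, come from the fit of genes alone. Many of the 52 also had a mean below the array medians, so neither share is matched.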

How the results depend on the processing

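The 9 differences of at least 0.5 on the log2 scale among the members, those of SYCP3, TEX9, MAGEA1, TEX15 and TEX2, kept their direction and call in all 153 refits. Of 1151 refits of named or called members, 1057 kept their status as called or not called, 90 lost the call and 4 gained it. A change of direction was counted only where the main fit or the refit called the member, and 0 were found. Uncalled differences near 0 may have changed sign. The count of members called with HL13 against DMSO was 16 of 77. It was 13 with the replicate block, 11 with all probe sets, 21 with median centring and 20 with quantile normalization. With 1 array left out it ran from 11 to 18. With the brightness filter it was 11, but of only 36 members tested, so that count is no drop from 16 of 77. The count over all genes was also lower with the block and with all probe sets. It was also higher with median centring and with quantile normalization. LBH589 against DMSO gave 11, against 9 with the replicate block, and from 8 to 11 with 1 array left out. HL13 against LBH589 gave 11, also with the replicate block, and from 9 to 12 with 1 array left out. Replicate numbers did not pair the arrays: deviations of arrays with the same number correlated with r between -0.213 and 0.039, and 0 of 9 arrays correlated best with its own number. Calls that held under every setting but the filter were 10 for HL13 (GAGE2A, MAGEA1, MAGED2, MAGEE1, SSX1, SYCP3, TEX14, TEX15, TEX2 and TEX9), 8 for LBH589 and 7 between HL13 and LBH589. Leaving out single arrays lost small calls: in HL13 against DMSO those of CT45A5 (5 of the 9 arrays, limma adjusted p up to 0.14), MAGEA4 (4, to 0.0818), SYCP2 (3, to 0.0877), TEX264 (6, to 0.137), TEX36 (5, to 0.0903) and CTAGE6 (HL13 replicate 1), in LBH589 against DMSO those of GAGE1 (5, to 0.139), GAGE2A (7, to 0.132) and MAGEC3 (8, to 0.115), and between HL13 and LBH589 those of SYCP2 (5, to 0.122), TEX10 (4, to 0.0833) and SYCP3 (HL13 replicate 3). With all probe sets MAGEA1 did not pass between HL13 and LBH589 (limma adjusted p = 0.0574). TEX36 moved to -0.07 without DMSO replicate 2 (limma adjusted p = 0.0847). The cause of these changes was not tested. Germ cell programme genes called with HL13 numbered 6 with median centring, in place of 3, and other antigens 9 with the filter, in place of 16, where fewer genes were tested. Dim genes limit what a difference near 0 can show.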
